A study of Drosophila melanogaster with 2 samples.

Results

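Intergenic peaks near gene starts were the peaks of the combined list of reproducible peaks whose summit lay inside no annotated gene and more than 500 bp but at most 5000 bp from the nearest annotated transcript start. Transposable elements were not counted as genes. Of 7220 peaks in the list, 647 met this rule, a share of 8.96% with an exact 95% interval from 8.31 to 9.64%. They are called members here. The rule used positions only and no measured value. The peaks closest to the near limit were 2 outside it, at 497 bp from a start of PHDP and 499 bp from one of RpS23, with signal scores of 236.4 and 44.6, and 4 inside it. Those inside lay at 502 bp from CG5535 and at 504 bp from CG10479, CG13896 and CG17896, with scores of 104.3, 647.1, 149.2 and 565.2.

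The peaks come from chromatin immunoprecipitation and sequencing (ChIP-seq) of whole, unsexed Drosophila melanogaster embryos collected from 0 to 24 h of age. They carried the hkb-eGFP insertion, from which Huckebein is made joined to enhanced green fluorescent protein, and an antibody against that tag was used for the precipitation. Chromatin had been sheared to between 200 and 800 bp, so a peak is wider than the sequence a protein touches. The 2 biological replicates form 1 group. No other genotype or condition was present, so no comparison across samples could be tested. Collections that span all of embryogenesis mix tissues and stages, and a signal in few cells cannot be told apart from a weak signal in many. Coordinates are on the dm6 assembly and are counted from 1.

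Huckebein is a zinc finger transcription factor made at both ends of the early embryo in response to the Torso receptor tyrosine kinase, where it helps to set the borders of the mesoderm and to specify the gut. Intergenic sequence a few kilobases from starts is where many enhancers and silencers of Drosophila developmental genes lie. A ChIP peak marks where chromatin fragments were recovered above the surroundings, and gives neither the gene that is served nor the effect on it.

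The summit sequences of 5 of the strongest members are printed first, because the base composition at the summit differed from that of the flanks. Each is 101 bases centred on the summit, from the RefSeq Release 6 genome, plus strand, with runs of at least 6 bases that hold only A or T in capitals. The windows are 3R:16222436-16222536 beside tara, 2L:2202366-2202466 beside CG31668, 2L:9567468-9567568 beside jp, 3L:5976461-5976561 beside CG10479 and 3R:14053537-14053637 beside foxo.
tara: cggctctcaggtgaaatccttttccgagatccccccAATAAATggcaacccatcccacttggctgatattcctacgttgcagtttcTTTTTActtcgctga
CG31668: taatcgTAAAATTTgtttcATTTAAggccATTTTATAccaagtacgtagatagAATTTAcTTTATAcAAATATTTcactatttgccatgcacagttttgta
jp: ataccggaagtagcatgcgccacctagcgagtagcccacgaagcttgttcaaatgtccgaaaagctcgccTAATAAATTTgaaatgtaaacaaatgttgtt
CG10479: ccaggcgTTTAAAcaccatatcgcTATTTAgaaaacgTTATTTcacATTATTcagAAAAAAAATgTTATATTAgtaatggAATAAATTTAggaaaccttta
foxo: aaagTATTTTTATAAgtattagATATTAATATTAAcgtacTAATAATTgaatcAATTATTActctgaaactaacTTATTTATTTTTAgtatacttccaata
GC content was 26.7% at the summits beside CG31668 and CG10479 and 16.8% beside foxo, but 47.5% beside tara and 42.6% beside jp. The strongest member was therefore not one of the AT-rich ones.

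A further window, 2L:3832466-3832566, lies 4324 bp upstream of slp2, which encodes a forkhead transcription factor of head and segment patterning. It is shown because it was the only member summit that held GGTCACACT, the letters of Motif 1, a core promoter element bound by M1BP. Capitals mark the copies.
slp2: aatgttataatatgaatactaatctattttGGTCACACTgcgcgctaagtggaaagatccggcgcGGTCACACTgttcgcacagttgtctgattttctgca
It held 2 copies of the letters, on a peak with a signal score of 600.0.

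The last set holds CACGCCC, a core of the sequence that Huckebein is known to bind, in capitals on either strand. These 3 of the 7 members with the core at the summit are 3R:17604766-17604866 beside sll, 2L:14454426-14454526 beside CG15283 and 3L:11278564-11278664, whose nearest coding start is Dyro.
sll: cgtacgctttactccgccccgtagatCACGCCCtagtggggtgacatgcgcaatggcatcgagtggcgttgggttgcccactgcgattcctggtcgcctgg
CG15283: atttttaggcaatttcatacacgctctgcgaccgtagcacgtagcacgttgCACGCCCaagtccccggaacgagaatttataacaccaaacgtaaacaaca
Dyro: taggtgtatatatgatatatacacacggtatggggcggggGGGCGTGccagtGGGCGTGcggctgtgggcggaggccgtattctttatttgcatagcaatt
The core stood once in the windows beside sll and CG15283 and 2 times in that assigned to Dyro. The signal scores of these members were 114.3, 87.5 and 84.4, and the median over all members was 109.7. The first was held by both replicates, the second by neither and the third by replicate 1 alone. The second lay nearer to the start of lncRNA:CR44730 than to that of CG15283. Those not printed, assigned to CG3092, dve, CG15283 and ex, scored 209.0, 118.9, 98.0 and 2.11.

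The deposited signal score, which has no stated unit, had a median of 109.7 over the members, with quartiles of 79.5 and 169.7 and a range from 2.11 to 1340. Within the whole list the median member ranked at the 52.2nd percentile. Of the members, 516 (79.8%) had the most common width of the list, 384 bp, and none was wider. The narrowest was 96 bp.

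The top 20 members were each covered by a thresholded peak in both replicates. So were 100% of the 119 members in the top signal quintile of the list. In that quintile 99.2% of intronic peaks at the same distance and 98.8% of peaks within 500 bp of a start were covered too, so this is not particular to the 20. The highest score, 1340, belonged to 3R:16222318-16222656, with scores of 724.7 for the overlapping candidate of replicate 1 and 607.7 for that of replicate 2. Its nearest start was that of the non-coding gene lncRNA:CR45643 at 909 bp, and its nearest protein-coding start was that of tara, a transcriptional coregulator gene, at 3165 bp. The next, 2L:2202234-2202558 with 1076, lay 3750 bp downstream of the start of CG31668, and its replicate scores were 638.9 and 442.3. In both peaks the replicate 1 score was the higher.

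The third, with 884.7, lay 3341 bp from the start of CycB, which encodes a mitotic cyclin, and its replicate scores were 512.0 and 376.3. The peak 1288 bp upstream of DNAlig3, a DNA ligase gene, scored 880.4, with 526.3 and 349.7 in the replicates. The peak 768 bp upstream of jp, which encodes a junctophilin, scored 808.8, with 409.4 and 390.4. The replicates differed least, in relative terms, at jp among these 3.

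Of the next members by score, the one assigned to chinmo, which encodes a BTB zinc finger protein, scored 617.2 (332.5 and 286.8 in the replicates). It lay 7793 bp from that coding start and nearer, at 3698 bp, to the start of lncRNA:CR45695. The member upstream of slp2 scored 600.0 (312.5 and 283.9). The member 3358 bp upstream of foxo, a forkhead factor of insulin signalling, scored 578.3 (306.6 and 263.4). Atf3, a basic leucine zipper factor, and zfh2, a zinc finger and homeodomain factor, were also among the 20, at 1920 and 3908 bp. The others were CG10479, tal-1A, CG17896, CG43245, RasGAP1, stck, CG13321, sp3, CG3149 and sm, and the peak of CG43245 alone among the 20 scored higher in replicate 2 than in replicate 1.

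**Figure D1:**
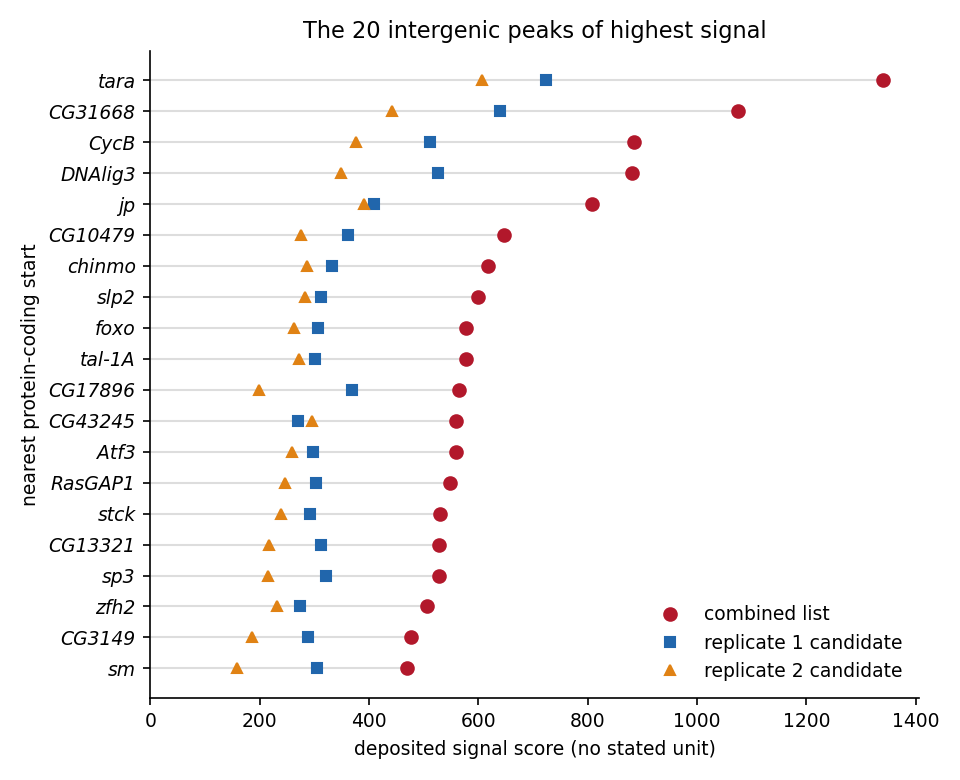
The 20 members of highest deposited signal score, named on the vertical axis by the nearest protein-coding start; circles give the score in the combined list, squares and triangles that of the strongest overlapping candidate in each replicate. The combined score ran from 1340 at tara downward, and the replicate 1 score was the higher in all but CG43245.

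The replicates' own lists give the spread between samples. Of the 647 members, 327 overlapped a thresholded peak of each replicate by at least 1 bp, a share of 50.5% (exact 95% interval 46.6 to 54.5%), where 47.9% of all peaks in the list did. A further 124 overlapped one of replicate 1 alone, 63 one of replicate 2 alone and 133 one of neither. The medians of the combined score were 167.0, 93.0, 95.4 and 70.8 in these 4 groups.

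Candidates in both ranked lists overlapped 637 members, and the median ratio of the replicate 1 to the replicate 2 score was 1.27, with quartiles of 1.03 and 1.57. The rank correlation of the 2 scores over these members was 0.75 (Spearman's rho, across peaks of the same pair of libraries, as a description). Over the 327 held by both it was 0.78. The member farthest from equal scores among those held by both, picked out after its values were seen, lay 525 bp upstream of CG10527 with 34.5 in replicate 1 and 244.6 in replicate 2. Its combined score was 32.1, and another listed summit lay 229 bp away.

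**Figure D2:**
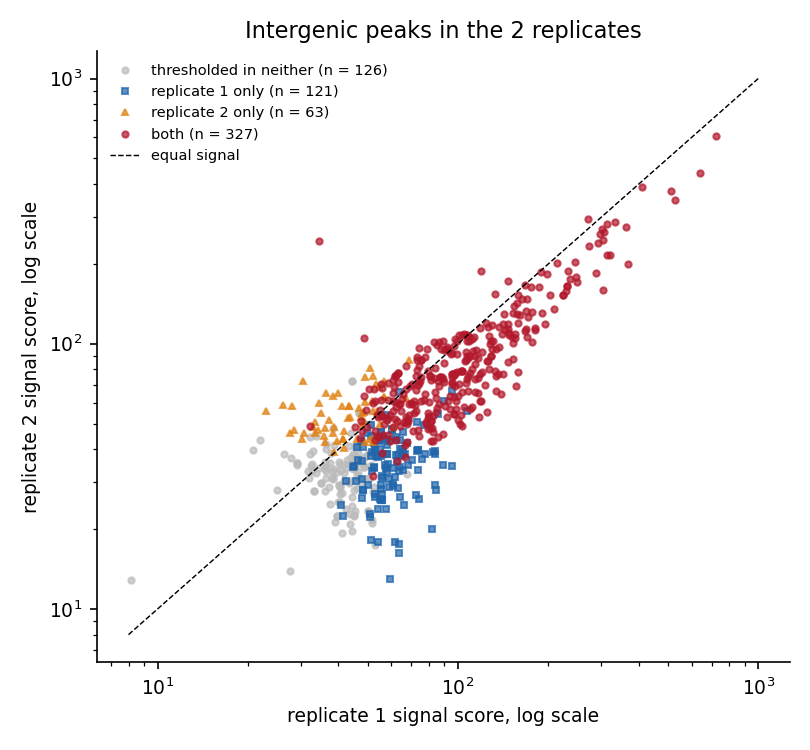
Signal score of the strongest overlapping candidate in replicate 1 (horizontal) and replicate 2 (vertical), both on log scales, for the 637 members with a candidate in each; colour and shape give the thresholded lists that hold the member. Most points lie below the line of equal scores, as the median ratio of 1.27 states.

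The 5 strongest members held by neither replicate scored from 99.3 to 114.7. The highest of them, 1125 bp upstream of CG15822, had no candidate in replicate 1 and one of 24.6 in replicate 2. The others lay beside scyl, CG13204, ex, which encodes a regulator of the Hippo pathway, and hry, the pair-rule gene hairy. At scyl the replicate scores were 44.5 and 72.3. Each of these 4 had a candidate in both replicates that did not reach its list.

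The lowest scores belonged to overlapping entries. Of the members, 82 overlapped another peak of the list, 70 of them another member, and 39 overlapped a stronger peak, with a median score of 9.60. All 30 members with a score under 20 were among those 39. The 608 members without a stronger overlapping peak had a median of 114.2 and a minimum of 22.2, and 312 of them (51.3%, 47.3 to 55.4%) were held by both replicates. Scores this low were not particular to members. The minimum was 2.01 for intronic peaks at the same distance, 2.07 for intergenic peaks beyond 5000 bp and 2.01 within 500 bp of a start. How many peaks of those classes overlapped a stronger one is not given here.

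The share held by both replicates was compared with that of 3 other classes. It was 51.1% for 1786 intronic peaks at the same distance from a start, 46.0% for 265 intergenic peaks beyond 5000 bp and 48.6% for 3372 peaks within 500 bp of a start. The differences of -0.52, 4.50 and 1.90 percentage points did not pass Fisher's exact test (two-sided, adjusted p 0.85, 0.59 and 0.59 over 3 comparisons). The odds ratios had 95% intervals of 0.82 to 1.17, 0.90 to 1.59 and 0.91 to 1.28. Peaks of the same libraries are not independent replicates, so these tests describe the 2 libraries.

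In each replicate's own list a smaller share of the peaks that met the rule than of 2 other classes stood among the strongest. In the combined list the differences did not pass. In the combined list 119 members (18.4%, 15.5 to 21.6%) were in the top signal quintile, which holds 20% of all peaks. The intronic class had 21.6%, the distal intergenic class 15.8% and the class near starts 21.8%, and none of the 3 differences passed (adjusted p 0.13, 0.39 and 0.13 by Fisher's exact test). In replicate 1's own list 494 peaks met the rule, and quintiles were cut within that list. Their share minus that of the intronic class was -5.46 points and minus that of the class near starts -6.67 points. Both passed Fisher's exact test (adjusted p 0.0147 and 0.00238). In the list of replicate 2, where 401 peaks met the rule, the differences were -6.66 and -9.57 points (adjusted p 0.00521 and 3.55e-05, same test). Against the distal class neither list gave a call. The call thus depends on the list.

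Sequence eligible under the rule amounted to 16.4 Mb, which gives 39.5 members per Mb (Poisson 95% interval 36.6 to 42.7). Intronic sequence at the same distances held 72.8 peaks per Mb (69.4 to 76.2), intergenic sequence beyond 5000 bp 13.3 (11.8 to 15.0) and sequence within 500 bp of starts far more, at 185.9. The density of members lay between that of distal intergenic and that of intronic sequence, with intervals that did not overlap. In the replicates' own lists the density was 30.2 per Mb (replicate 1) and 24.5 (replicate 2). These intervals cover counting error over peaks only.

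Density was highest close to starts. It was 56.3 per Mb (47.9 to 65.7) from the near limit to 1000 bp, 46.8 in the next 500 bp, and between 26.3 and 33.3 in every 500 bp step beyond 2500 bp. The median distance was 1834 bp, with quartiles of 1006 and 3092 bp. The median score did not follow the density: it was 104.9 in the nearest step and 133.6 in the farthest, where 20 of 33 members were held by both replicates.

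Members lay upstream of their nearest start in 449 cases, 69.4% (65.7 to 72.9%), where 64.2% of eligible bases did. Upstream sequence held 42.8 members per Mb (38.9 to 46.9) and downstream sequence 33.8 (29.2 to 38.8), with intervals that did not overlap by a narrow margin. Density also fell with distance from a start, and the sides were not compared at equal distances. Intervals between divergent genes, whose starts face each other, held 46.2 per Mb (40.1 to 53.0). Tandem and convergent pairs held 38.2 and 34.9, and the interval of the convergent pairs, 28.9 to 41.9, overlapped that of the divergent ones.

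The nearest start belonged to a protein-coding gene for 447 members, a non-coding RNA gene for 179, a tRNA gene for 14, a pseudogene for 5 and a snoRNA gene for 2. Coding and non-coding starts had densities of 40.6 and 38.7 per Mb, with overlapping intervals. Beside tRNA genes, which RNA polymerase III transcribes, the density was 58.9, with a wide interval from 32.2 to 98.9. The strongest of these 14 scored 576.8 and lay 2280 bp from tRNA:Phe-GAA-1-7.

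**Figure D3:**
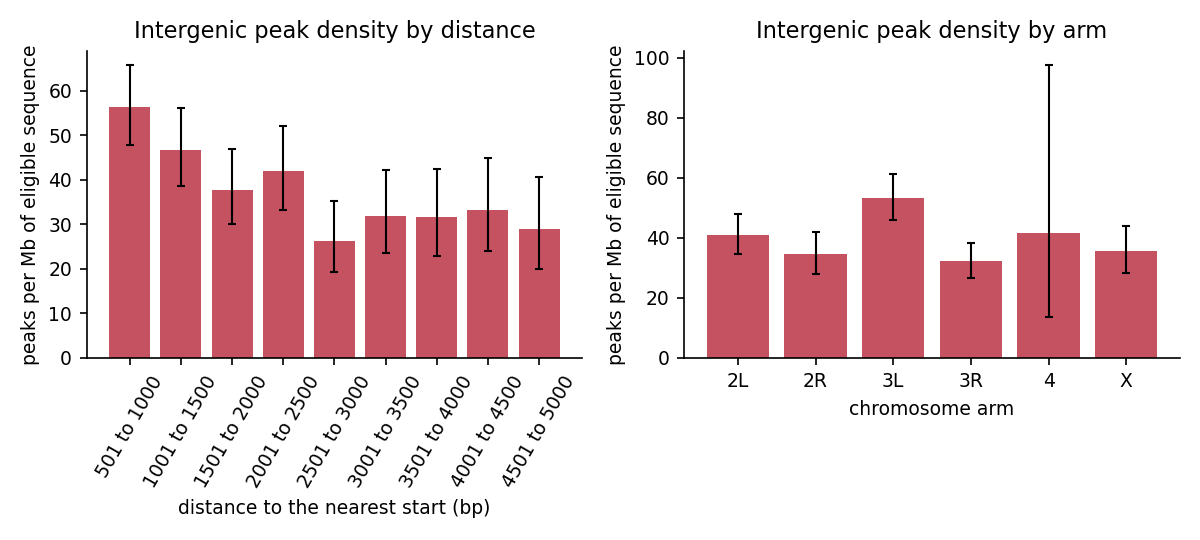
Members per Mb of eligible sequence by distance to the nearest start (left) and by chromosome arm (right); bars start at 0 and error bars are Poisson 95% intervals. Density falls from 56.3 in the nearest step to 28.9 in the farthest, and 3L stands highest of the large arms at 53.2.

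Of the large arms, 3L held the most members per Mb, 53.2 (45.8 to 61.4, 186 members). The next was 2L with 40.9 (34.5 to 48.0), and X, 2R and 3R had 35.6, 34.5 and 32.1, with upper limits of 44.0, 42.0 and 38.3 that lay below the interval of 3L. The order at the top was the same in the replicates' own lists, where 3L had 40.6 per Mb in replicate 1 and 33.8 in replicate 2 and 2L had 31.4 and 25.3. Among intronic peaks at the same distance X was highest, at 82.4 against 78.2 on 3L, among distal intergenic ones 2L, at 18.6 against 16.5, and near starts 2R, at 214.2 against 198.9. Chromosome 4, the smallest, had 5 members.

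Most intervals between genes held no member. Of 6388 intergenic intervals with eligible sequence, 491 (7.69%) held a member, 85 of them 2 and 32 at least 3, and the most was 4. Of the 32, 14 were on 3L and 11 on 2L. Counted by interval and not by peak, 3L had 37.2 per Mb and the other large arms between 25.7 and 30.0. Another listed summit lay within 1000 bp for 31.1% of members.

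Among the intervals that held 4, the 3 of highest summed score are described. The first lies on 2L between lncRNA:CR44603 and lncRNA:CR45695, 20910 bp long, and its scores were 50.04, 52.8, 156.0 and 617.2. The last is the peak assigned to chinmo, and the pair of weaker ones was held by neither replicate. The 4172 bp interval between CG7484 and Crtc, which encodes a coactivator of CREB, held scores of 140.2, 99.2, 319.8 and 91.5, of which 2 were held by both replicates. The 6545 bp between lncRNA:CR45737 and sty held scores of 149.5, 223.8, 65.0 and 192.8, all 4 held by both. The gene sty encodes Sprouty, an antagonist of receptor tyrosine kinase signalling.

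In the latter interval the protein-coding start nearest to all 4 was not that of sty but that of Ids, from 16416 to 18015 bp away, since the end of sty and not its start faces the interval. Ids, CG13898 and Dyro each were the nearest coding start of 7 members, the highest count, and all are on 3L. These 3 genes were named after their counts were seen. Of the 7 members of Ids, all were held by both replicates, with scores from 65.0 to 273.3. Those of CG13898 ran from 5.55 to 311.2 and those of Dyro from 4.37 to 181.8.

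GC content was lowest at the summit. Over 101 bp at the summit it averaged 34.3% (SD 9.83 over 647 members, range 11.9 to 65.3%), against 40.7% in windows 500 bp to either side and 40.6% in all eligible sequence. In 452 of 647 members the summit was below its own flanks. The intronic class averaged 34.3% at the summit and 41.3% in the flanks. The distal intergenic class had 32.9 and 41.4%, and peaks near starts 38.2 and 43.6%. A lower value at the summit was thus not particular to members. The same measure was 34.4 and 40.7% for peaks that met the rule in replicate 1's list, and 33.1 and 40.9% in that of replicate 2. Candidates that met the rule in the ranked list, before any threshold, had 41.6% at the summit and 40.5% in the flanks.

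In steps of 50 bp the mean fell to 34.1% at the summit from 44.1% at 200 bp on one side and 44.2% at 150 bp on the other, and returned to about the level of eligible sequence by 600 bp. Members of the lowest signal quintile had 38.8% and those of the highest 32.4% at the summit. For intronic peaks these were 40.0 and 30.5%, and for peaks near starts 43.3 and 30.3%, so a lower GC content at stronger peaks was found in all 3 classes. The share of members with the most common peak width was 99.2% in the lowest and 15.1% in the highest quintile, and the part of width in the GC difference was not tested.

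**Figure D4:**
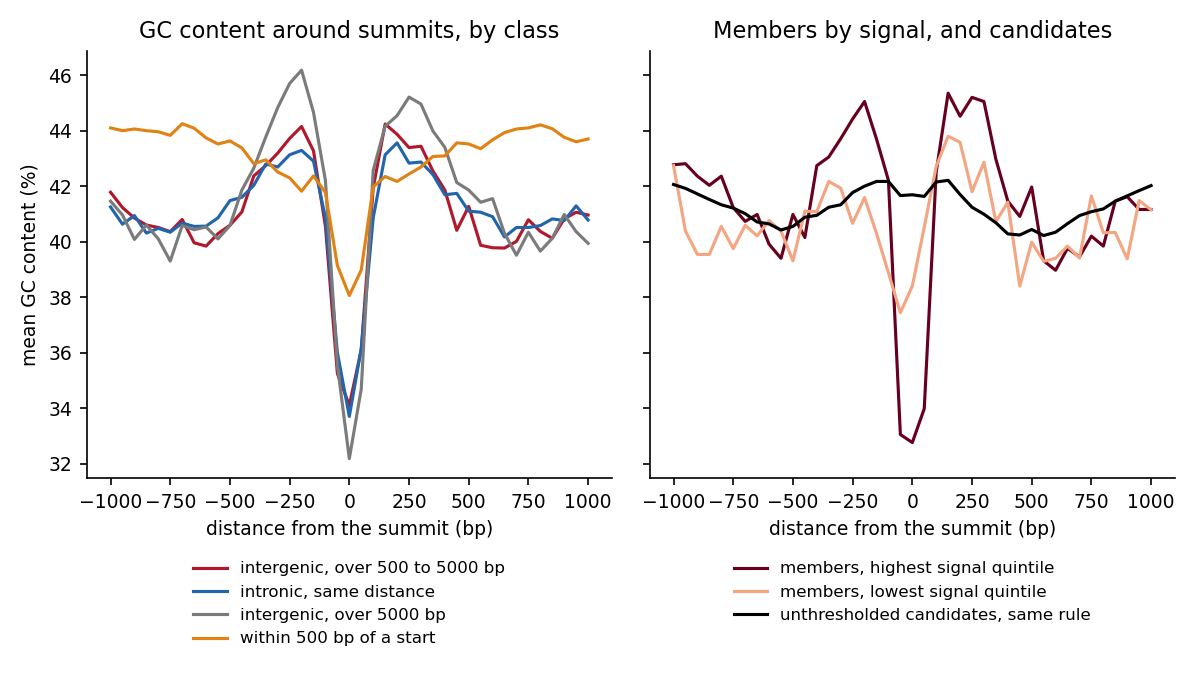
Mean GC content of 51 bp windows by distance from the summit, for 4 classes of listed peaks (left) and for members of the highest and lowest signal quintile and the unthresholded candidates under the same rule (right). Members fall to 34.1% at the summit, while the candidates stay at 41.7%. The intronic, distal intergenic and near-start classes fall to 33.7, 32.2 and 38.1%.

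Hexamer counts showed the same difference in letters. Each window was scored once per hexamer on either strand, and 199 hexamers, 9.57% of all that differ after reverse complement, differed between summits and flanks by Fisher's exact test with Benjamini-Hochberg adjustment (two-sided, adjusted p under 0.05). The test pooled all windows and did not pair a summit with its own flanks, so its p-values treat windows of the same peak as independent. Of the 102 more common at summits, 82 had at most 1 G or C, and of the 97 less common, 80 had at least 4. In replicate 1's own list 78 hexamers passed and in that of replicate 2 104, of which 55 and 74 were among the 199. AAATAT stood in 33.7% of summit and 19.0% of flank windows (odds ratio 2.17, 1.75 to 2.68, adjusted p 5.76e-09). Next by p came TATAAA in 23.6% of summits and 12.8% of flanks, AATATA in 23.6 and 13.1%, ATATTA in 21.3 and 11.2% and ATATAA in 21.0 and 11.4%. They were followed by TTAAAA in 28.9 and 17.8%, TAAAAA in 31.2 and 19.8%, CTTAAA in 16.4 and 8.04%, ATTATA in 18.2 and 9.66% and AATTTA in 24.0 and 14.3%. All 10 were at least 1.84 times as likely at the summit in odds.

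Of the hexamers less common at summits, those of smallest p were ACGGCA, in 0.464% of summits and 4.17% of flanks (odds ratio 0.11, 0.033 to 0.34), and AGGCGG, in 0.618 and 4.48%. Next by p came CGATCC in 0.464 and 3.79%, CTGCCA in 2.63 and 7.65%, GGCCAA in 2.63 and 7.34% and ATCGGA in 1.08 and 4.56%. They were followed by CGCTGC in 2.63 and 6.96%, GGAAAA in 8.96 and 15.5%, CAGCGA in 2.01 and 5.87% and CCACCC in 2.16 and 6.03%. The calls that went against GC content were few. With 3 G or C, GTACAC stood in 5.41% of summits and 2.32% of flanks, while ACACTG stood in 6.18 and 3.01% and CACTGA in 7.57 and 4.33%. With 2 G or C, GGAAAA, already listed above, stood in 8.96 and 15.5% and GCAAAA in 8.96 and 13.6%. They were picked out after the counts were seen.

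Set against 3 other classes of peaks, hexamers of members passed the test for 1 of them. Summits within 500 bp of a start gave 136 calls (6.54%), 47 higher and 89 lower in members. By p the lower ones were led by CGCGAG, in 0.309% of members and 3.71% of those peaks, and the higher ones by CATAAA, in 17.8 and 10.2%. Against intronic summits 0 hexamers passed Fisher's exact test after adjustment, with 130 at an unadjusted p under 0.05, and against distal intergenic summits 0 passed, with 82 at that level. The smallest adjusted p were 0.22 and 0.84.

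Of 16 motifs set against the flanks, TATAAAA, the TATA box, passed. It stood in 68 member summits (10.5%) and in 4.17% of flank windows (odds ratio 2.70, 1.86 to 3.91, adjusted p 2.58e-06 by Fisher's exact test). It holds no G or C, and GC content at these summits was lower than in the flanks (34.3 against 40.7%); the part of base composition in the result was not tested. By signal quintile its share was 7.03, 13.0, 11.0, 12.9 and 8.40% from the lowest to the highest, and intronic summits held it at 9.52% (adjusted p 0.87). A match describes letters and not a site in use. As with the hexamers, the test against the flanks did not pair a summit with its own flanks.

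The homeodomain letters TAATTA stood in 10.2% of summits and 6.88% of flanks (odds ratio 1.54, 1.10 to 2.15), which did not pass (adjusted p 0.10) but did with 100 bp windows and with flanks at 250 bp (adjusted p 0.032 and 0.010, Fisher's exact test). CACGCCC, the Huckebein core, stood in 7 member summits (1.08%) and 1.31% of flanks, with an odds ratio of 0.82 and an interval from 0.34 to 1.99 (adjusted p 0.95). Of all listed summits 0.762% held it. Of the 7, 3 were held by both replicates: the peak beside sll, one beside CG3092 with a score of 209.0, and one 1007 bp upstream of dve with 118.9. TAATTA holds no G or C and CACGCCC is mostly G and C, while GC content was lower at summits than in flanks (34.3 against 40.7%). The part of base composition in either comparison was not tested.

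The other motifs did not pass against the flanks at 500 bp. CAGGTAG, bound by Zelda, stood in 3 member summits, and TGAATGAA, the Torso response element, in 6. AGATAAG, bound by srp and its relatives, stood in 11 and GAGAGAG, bound by Trithorax-like, in 10. TGACTCA, bound by AP-1, stood in 5 and GTGGGAA, bound by Su(H), in 4. TAATCC (Bicoid) and the E-box CAGCTG stood in 15 each, the E-box CATATG in 24 and GGGCGG (Sp and Kruppel-like factors) in 19. With flanks at 250 bp GGGCGG was less common at summits (log2 odds ratio -1.16, adjusted p 0.0088 by Fisher's exact test). These letters are all G or C, and GC content at summits minus those flanks was -9.32 points. The part of base composition in this call was not tested. TATCGATA (DREF), AACCGGTT (Grainy head) and GGTCACACT stood in 1 each, and near starts TATCGATA and GGTCACACT stood in 1.60 and 1.04% of summits. Against intronic summits none of the 16 passed by Fisher's exact test, and GGGCGG, in 2.94% of members and 1.34% of those, was the 1 motif with an unadjusted p under 0.05 (0.0136, adjusted 0.22).

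By the nearest protein-coding start, members were assigned to 474 of 13945 coding genes (3.4%). For 140 members that start lay beyond 5000 bp. Of the 474 genes, 361 had 1 member, 78 had 2 and 35 had more, and 253 also had one in each replicate's own list. Peaks of replicate 1's list that met the rule were assigned to 374 genes and those of replicate 2's to 315. The gene of the nearest start of any kind itself had a peak within 500 bp of a start for 188 of 647 members (29.1%). The share was 54.0% for intronic peaks and 20.8% for all annotated genes.

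Of 10 terminal genes, which act at the ends of the embryo, 0 had a member, and 1 did when members were assigned to both flanking genes. The share over all coding genes was 3.4%, and 10 genes are too few to read 0 as an absence. Of 11 genes of receptor tyrosine kinase signalling, the kind of pathway that switches on hkb, 3 had a member (27.3%). The count was 1 in replicate 1's own list and 3 in that of replicate 2. The member 1507 bp upstream of aop, which encodes the ETS repressor Yan, scored 417.1 (231.8 and 187.6 in the replicates), and a second at 890 bp scored 167.0, both held by both replicates. Members upstream of pnt, the ETS activator of the pathway, at 138.8 and of Raf, its kinase, at 80.2 and 18.4 were held by replicate 2 alone. Both entries of Raf overlapped each other and had the same replicate scores, 41.4 and 43.9.

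The gene of the tagged protein, hkb, was the nearest start of no member. The 5100 bp interval between hkb and CG1103, whose ends face each other, held 2 overlapping members at 3R:4340933-4341316 and 3R:4341135-4341518, 3890 and 3688 bp from the end of hkb. They scored 97.6 and 9.60. Both overlapped the same candidates, of 43.3 in replicate 1 and 58.1 in replicate 2, and only that of replicate 2 was in its thresholded list.

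Of 15 gap and maternal genes 3 had members (20%), beside 3.4% of all coding genes. Besides the strong one upstream of slp2, a member of 85.7 lay on its other side, and slp1 had one of 94.7 and one of 4.04, all held by replicate 1 alone. Both entries of slp1 overlapped each other and had the same replicate scores, 52.8 and 39.9. D, which encodes a Sox protein, had one of 198.7 (114.2 and 83.5). The pair-rule list had 1 of 8, hry, with scores of 136.4, 110.4 and 99.3. The first and the last lay 20643 and 13956 bp away, nearer to lncRNA:CR44526, and the last was held by neither replicate.

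Endoderm genes had 3 of 9 (33.3%), beside 3.4% of all coding genes. The member of dve, a homeobox gene of the midgut, was held by both replicates (67.5 and 42.5). That of srp, the GATA factor of the endoderm, scored 77.5 and that of peb, a zinc finger gene, 89.6, both held by replicate 1 alone, and a second of peb, with 67.2, was held by neither. The endoderm count was 3 in replicate 1's own list and 1 in that of replicate 2.

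Of 26 dorsoventral and mesoderm genes 3 had a member (11.5%), beside 3.4% of all coding genes. The LIM homeodomain gene tup had 3 members, of 178.8, 119.5 and 90.6. The first (124.5 and 55.3) was held by both replicates and lay 9022 bp from tup and nearer, at 3328 bp, to lncRNA:CR44737. The others were held by replicate 1 alone and lay farther from tup, at 25537 and 18231 bp. Their nearest starts were those of lncRNA:CR44738 and lncRNA:CR44739, at 674 and 1002 bp. Doc2, a T-box gene, had one of 134.5 (79.4 and 52.5), and dpp, the BMP ligand, one of 132.5 (73.8 and 70.0).

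The remaining developmental lists had members beside Wnt6 and Wnt4, with scores of 68.2 and 62.6, for 2 of 11 segment polarity genes, and beside Dfd, with 200.3, for 1 of 11 homeotic genes. The segment polarity count was 1 in replicate 1's own list and 0 in that of replicate 2. The peak of Dfd lay 26979 bp from its start and 1079 bp from tRNA:Lys-TTT-2-1. Of 9 Notch pathway genes matched in the annotation 1 had a member, E(spl)m3-HLH with 91.8, and of 17 neural genes 0 did. With both flanking genes these counts were 0 and 2. Beside the share of 3.4% over all coding genes, 17 genes are too few to read 0 as an absence.

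Lists of genes that are not patterning genes also had members. Of 92 ribosomal protein genes 2 did, RpLP0 with 122.0 and RpS23 with 84.3, with 2 in replicate 1's own list and 1 in that of replicate 2. Of 179 chemoreceptor genes 6 did, a share of 3.35% beside the 3.4% of all coding genes, among them Gr89a with 298.1 and Gr93a with 158.6. Cuticle protein genes had 5 of 70, among them Cpr65Ec with 189.6 and Cpr51A with 187.0. In replicate 1's own list 5 cuticle genes had one, in that of replicate 2 there were 2, and 1 gene had one in all 3 lists. The lists are short and differ in how much intergenic sequence flanks their genes, so their shares are counts and nothing particular to a list was tested.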

How the data were processed

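ChIP-seq peak lists of 2 biological replicates of 1 group were used, on dm6 per the labels. Neither aligner nor peak caller is given in the sources used here. No control was analysed here. The signal score and the −log10 values of q and of the irreproducible discovery rate (IDR) were deposited by the authors. Read totals are not part of peak lists, so depth is unknown, and intervals cover counting error only. The combined list, of 7220 peaks with an IDR of at most 0.01, was used together with each replicate's thresholded and ranked lists. The replicates' separate lists give all spread between samples.

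Summits were placed on Ensembl release 115 genes (18164 after transposable elements were removed) and the RefSeq Release 6 genome. A replicate's score is that of its strongest candidate overlapping by at least 1 bp. Motifs and hexamers were scored once per 101 bp window on both strands, with both flanks at 500 bp, some of which reach into genes. Shares had exact (Clopper-Pearson) intervals, densities Poisson intervals, odds ratios Woolf intervals, and tests were Fisher's exact test, two-sided, with Benjamini-Hochberg adjustment over 3 classes, 16 motifs or all hexamers. Python 3.11.15, numpy 2.4.6, scipy 1.17.1, pandas 2.3.3 and matplotlib 3.10.9 were used, and the hexamer test was tested on simulated data. Simulated summit and flank windows were drawn independently at the same base composition, so that check does not cover the difference in GC content found here.

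Members and lists were chosen with earlier results of these data known. Named genes were those nearest the 20 members of highest score, up to 4 per list by score, those beside the 3 intervals with most members, hkb, the 5 strongest members held by neither replicate, members within 5 bp of a limit, and the first 10 hexamers in each direction. Alternatives were the conservative list, each replicate's own list, the stronger 50%, coding genes only, other overlaps, windows and flanks, and both flanking genes. Chosen after seeing the data were the alternatives for GC content and the lists without peaks that overlap a stronger one.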

Additional observations from a re-analysis of the deposited data

Results flagged for a closer look

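Of the candidates placed by the rule in the ranked list that combines the replicates, 665 reached a −log10 IDR of at least 2, and 18 of them were absent from the list used here (168 over all classes). They are peaks outside the list that defines the members. The highest score among them was 956.3, at 3R:16224351-16224657, 895 bp from a start and nearest to tara. In 1 stretch, 2L:12002959-12012747 beside Rh5, a rhodopsin gene, and Hacd1, there were 12 of the 18, with scores from 38.0 to 278.9. Why they are absent was not tested.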

How the results depend on the processing

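Read depth is unknown, and 2 replicates of 1 group allow no test across samples. No pairing across samples was possible because there was 1 group. Pairing each summit with its own flanks was possible, but the motif and hexamer tests did not do so. The share held by both replicates cannot be had from 1 replicate's list alone.

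Over the alternatives, 70 recomputed values for the main comparisons kept their call and direction or stayed inside their interval, among them those without members that overlap a stronger peak. Of the others, 20 moved out of their interval or changed in count, 8 turned in direction and 4 gained a call. Density was 24.5 to 30.2 per Mb in the lists of 1 replicate, 20.4 in the stronger 50% and 45.3 with protein-coding genes only, where the upstream share was 75.04%. In the stronger 50% the median percentile was 47.2, and 86.5% of members were held by both replicates. The difference in that share from the intronic class, -0.52 points, turned to 0.547 with 50% overlap, 0.326 in the conservative list, 1.99 in the stronger 50%, and 0.940, 5.69 and 0.779 in signal quintiles 2, 4 and 5. That from the distal class turned to -7.73 in quintile 3, and that from peaks near starts to -2.46 in quintile 1. None of these passed. Log2 odds ratios of motifs that missed the threshold turned for the Huckebein core (0.52 with 25 bp windows), Zelda (-0.22 with flanks at 1000 bp), the Torso response element (-0.22 in the stronger 50%, -0.060 with 100 bp windows), DREF (1.00 with flanks at 250 bp, 0 to 0.42 in the lists of 1 replicate), CATATG (0.10 with flanks at 250 bp) and Grainy head (-1.32 and -1.002 with flanks at 250 and 1000 bp, -0.59 to 2.00 in the lists of 1 replicate).

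The deficit in the top quintile passed for the peaks that met the rule in each replicate's list. It was -6.66 to -5.46 points against the intronic class and -9.57 to -6.67 against peaks near starts. Motifs past the threshold against flanks numbered 2 with 100 bp windows (the homeodomain letters gained) and 3 with flanks at 250 bp (these and GGGCGG). The TATA box was among them under all 9 alternatives (log2 odds ratio 1.10 to 1.63). Hexamer calls numbered 78 to 104 in the lists of 1 replicate, 107 in the stronger 50%, 50 with 25 bp windows and 502 with flanks at 250 bp. All 199 kept their direction, except in replicate 1's list, where 197 did. The GC difference of -6.43 points was -7.80 to -6.25 in those lists, -8.19 in the stronger 50%, -4.22 with 100 bp windows and -9.32 with flanks at 250 bp. Listed genes with a member numbered 30, 19 to 25 in the lists of 1 replicate, 17 in the stronger 50% and 39 with both flanking genes, which gave 1 terminal, 2 neural and 0 Notch genes.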
